A study of Mus musculus with 19 samples.

Results

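The cytosolic ribosomal protein genes, which encode the protein part of the ribosome outside the mitochondria, were followed across 7 groups of mouse CD8 T cells. They were taken by name: every gene symbol made of Rpl or Rps with a number and at most a closing a or x, the stalk genes Rplp0, Rplp1 and Rplp2, and Rpsa, provided that it reached 1 CPM, the usual unit of a count scaled to its library's total, in at least 3 of the 19 libraries. Of 53656 gene names, 76 matched, 46 of the large and 30 of the small subunit, and all 76 passed. The genes were thus chosen by name and selected on their CPM level, which removed no gene. The genes closest to the limit were Rpl24, whose third-highest library had 9.83 CPM, Rpl23a with 12.6 CPM and Rpl39 with 47.6 CPM. No gene lay outside it.

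All libraries are labelled C57BL/6 and came from CD8 T cells with a transgenic T cell receptor, sorted by flow cytometry. The SV40-I receptor recognises large T antigen of SV40, and the OT-I receptor recognises ovalbumin. In groups of 3, the labels give late SV40-I cells (CD8, Thy1.1) and late OT-I bystander cells (CD8, Ly5.1), each isolated on days 20 to 21 from malignant liver lesions. On days 8 to 9, early SV40-I cells from such lesions were split into 3 marker-high libraries (PD1, LAG3 and CD39 high) and 3 marker-low libraries (PD1, LAG3 and CD39 low). In vitro effector SV40-I cells were naive cells activated through CD3 and CD28, transduced with a retrovirus and grown in IL-2, and carried either TOX-GFP (2 libraries) or GFP only (2 libraries). The reference was 3 libraries of naive SV40-I cells (CD8, CD44 low). The source field reads splenocytes for every library, also where the title gives liver lesions, and the headings inside the marker-high and marker-low tables carry genotype words that the labels do not, so the groups follow the titles. Neither the host mice nor whether replicates were separate animals or cultures is given, so a p-value here reflects how far such libraries vary, which may be technical variation only.

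Ribosomal proteins are made in matched amounts, since each ribosome holds a single copy of nearly all of them. Their mRNAs are short and abundant, and most begin at a C followed by a run of pyrimidines, the TOP motif, through which mTOR and the RNA-binding protein LARP1 set their translation and stability. A T cell that leaves the naive state enlarges its ribosome pool before it divides. Some members also act outside the ribosome: Rpl5 and Rpl11 bind MDM2 and so stabilise p53, Rpl13a is needed for interferon-triggered silencing of certain mRNAs in human myeloid cells, and Rpl22 has a role in T cell development.

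The start regions were searched for a pyrimidine run near the start. The run did not have to begin at the first base of the mRNA, so a match is not the TOP motif itself. A gene without a match may still carry that motif. RefSeq promoter sequences (build GRCm38.p6, from 250 bases before to 50 after the annotated start) were matched by symbol for 56 of the 76 genes. A run had to begin with a C and have 8 or more bases between 15 bases before and 15 after the start. It was read on the strand that has the mRNA's sequence. Such a run was found in 25 of the 56 (44.6%), against 11.0% of 26969 other genes. The opening C may lie before that window, and a gene with several listed starts was represented by the start with the longest run. The letters CGGAAG, the core of sites bound by ETS-family factors, were found on either strand of the 300 bases in 39 of the 56 (69.6%), against 18.7% of the other genes. Such matches describe letters, not bound sites. Shown here are 4 genes with a run and 2 without, chosen because the results below turn on them; each line runs from 15 bases before to 15 after the start, 5′ to 3′, and capitals mark the part of the pyrimidine run inside the window, which in Rpl4 begins at a C just before it.
Rps27: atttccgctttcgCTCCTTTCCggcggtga
Rpl35: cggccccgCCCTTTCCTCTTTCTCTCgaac
Rpl4: TTCCTTTTCCTgtgggagcagccgggtaga
Rpl13a: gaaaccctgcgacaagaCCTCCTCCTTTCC
Rps19: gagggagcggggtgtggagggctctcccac
Rps2: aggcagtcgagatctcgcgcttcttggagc
They lie at chr3:90213634-90213663 on the minus strand for Rps27, chr2:39005117-39005146 on the minus strand for Rpl35, chr9:64173372-64173401 on the plus strand for Rpl4, chr7:45128731-45128760 on the minus strand for Rpl13a, chr7:24884898-24884927 on the plus strand for Rps19 and chr17:24720048-24720077 on the plus strand for Rps2. Within the window the runs were 9 bases in Rps27, 18 in Rpl35, 11 in Rpl4 and 13 in Rpl13a. In Rps19 the longest run was 7 bases and in Rps2 6 bases.

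Libraries held 37006508 to 54195918 counts assigned to genes, and all 76 genes were detected in each library. Counting error is thus small for most genes named here, but not for the nearly silent Rpl39l and Rpl3l named below. Labels were checked on the sorted or forced genes. Tox had 118 to 156 CPM in TOX-GFP cells and 13.8 to 21.4 CPM in GFP cells. The TOX-GFP level overlapped with naive cells (90.3 to 130 CPM) and marker-low cells (48.9 to 125 CPM). It lay below marker-high cells (359 to 731 CPM) and late SV40-I cells (666 to 949 CPM). Pdcd1 (PD1) reached 2229 to 3399 CPM when sorted marker-high, against 372 to 654 CPM when sorted marker-low. The 6 CD8 T cell markers summed to 5034 CPM or more in every library. Libraries with other cells' RNA stood apart: the 8 macrophage markers, all detected, summed to 8715 CPM in marker-low library 2 against 1994 and 731 CPM in marker-low 1 and 3, and the 12 hepatocyte markers, all detected, summed to 1416 CPM in late SV40-I library 2 and to 984 and 1733 CPM in OT-I libraries 2 and 3. The 7 erythroid and platelet markers summed to 3605 CPM in OT-I library 2, against 1724 and 1290 CPM in OT-I 1 and 3, and to 1365 CPM in marker-high library 3, against 111 and 130 CPM in marker-high 1 and 2. The macrophage markers also summed to 4038 to 5971 CPM across the marker-high libraries. In bulk libraries of this kind, fewer cells of a type and less RNA per cell cannot be told apart.

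The 76 genes together took 1.17%, 1.49% and 1.47% of all counts in the 3 late SV40-I libraries. They took 1.70%, 1.48% and 2.07% in late OT-I, 1.97%, 2.14% and 1.30% in marker-high cells, and the marker-low libraries held 3.28%, 1.40% and 3.21%. In culture they took 2.31% and 2.43% of the TOX-GFP libraries and 3.18% and 3.06% of the GFP libraries, and among naive cells 3.01%, 5.40% and 2.34%. Late SV40-I cells were thus lowest and naive cells highest by group mean, at 1.38% ± 0.18 (SD, n = 3) against 3.58% ± 1.61 (SD, n = 3), but the naive libraries differed among themselves 2.30-fold. Marker-low library 2, the library richest in macrophage markers, lay within the marker-high range, whereas marker-low 1 and 3 lay above it; the part of the macrophage RNA in this was not tested. OT-I library 2 and marker-high library 3, the richest of their groups in erythroid and platelet markers, had the lowest shares of their groups, and the part of that RNA was not tested either. The order of group means was late SV40-I, late OT-I at 1.75% ± 0.30, marker-high at 1.81% ± 0.45, TOX-GFP at 2.37% ± 0.08 (n = 2), marker-low at 2.63% ± 1.06, GFP at 3.12% ± 0.09 (n = 2) and naive, and the ranges of late OT-I with late SV40-I and with marker-high, of marker-low with its neighbours TOX-GFP and GFP, and of GFP with naive overlapped. Small-subunit genes had 0.546% of the counts in late SV40-I and 1.53% in naive cells, and large-subunit genes 0.830% in late SV40-I and 2.06% in naive cells, so both subunits followed the sum.

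**Figure D1:**
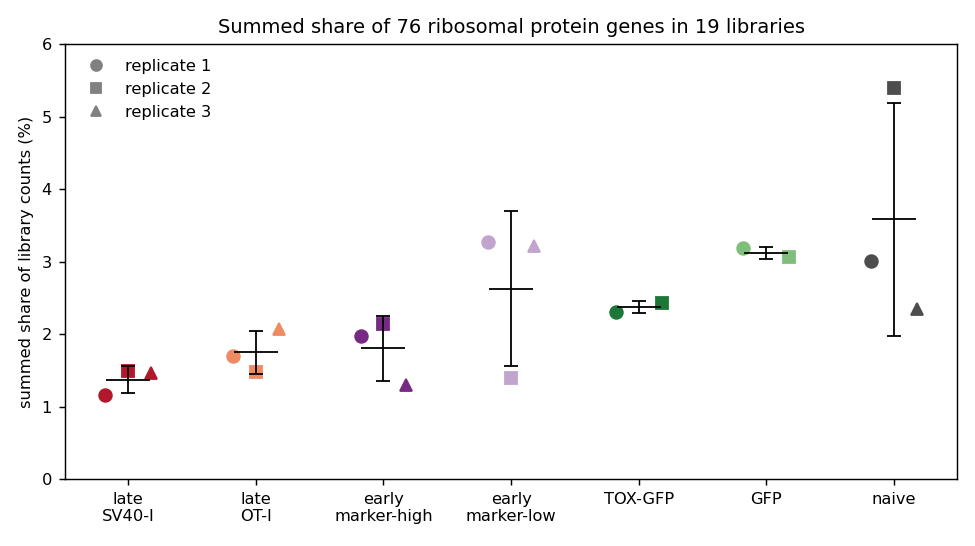
Summed share of library counts (%) held by the 76 ribosomal protein genes in each of the 19 libraries, by group; symbols mark the replicate number, bars the group mean and SD. The 3 late SV40-I libraries lie at 1.17% to 1.49%, all below the naive libraries, of which naive 2 stands at 5.40% and the others at 3.01% and 2.34%.

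The spread among the naive libraries came from the whole family. Naive library 2 was the highest of the 3 for 75 of the 76 genes, and naive 3 the lowest for 75. The highest naive library exceeded the lowest 3.60-fold for Rpl36, 3.56-fold for Rps27 and 3.55-fold for Rpl35a, a gene mutated in some cases of Diamond-Blackfan anaemia in humans. The narrowest spreads were 1.18-fold for Rpl4, 1.32-fold for Rpl13a and 1.65-fold for Rplp0. These 3 genes have longer mRNAs than most of the family, whose median mRNA length was 705 bases (271 to 3706), against 2648 bases for other genes at a mean of 10 CPM or more. Over the 76 genes, the naive spread was smaller for longer mRNAs (Spearman's rho -0.65, n = 76 genes of the same 3 libraries, given as a description).

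Length marked other genes in the same libraries. Genes outside the family with mRNAs under 500 bases were higher in naive 2 than in naive 1 and 3 by a median log2 ratio of 1.16, those of 500 to 1000 bases by 0.78, and those of 4000 bases or more were lower, at -0.36; the 76 ribosomal protein genes stood at 1.33. Marker-low library 2 showed the opposite: the ratio to marker-low 1 and 3 was -1.14 for other genes under 500 bases and 0.37 for those of 4000 or more, and -1.38 for the ribosomal protein genes. Between late SV40-I cells and naive 1 and 3, other short genes differed little (0.03 under 500 bases and 0.14 from 500 to 1000 bases) while the ribosomal protein genes stood at -0.92. Over all 3 naive libraries, the other short genes stood at -0.42 and -0.18 and the ribosomal protein genes at -1.44. For TOX-GFP over GFP the medians were -0.26 under 500 bases, -0.18 from 500 to 1000 bases and 0.09 at 4000 bases or more, against -0.40 for the family. How far library preparation set these shifts was not tested.

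**Figure D2:**
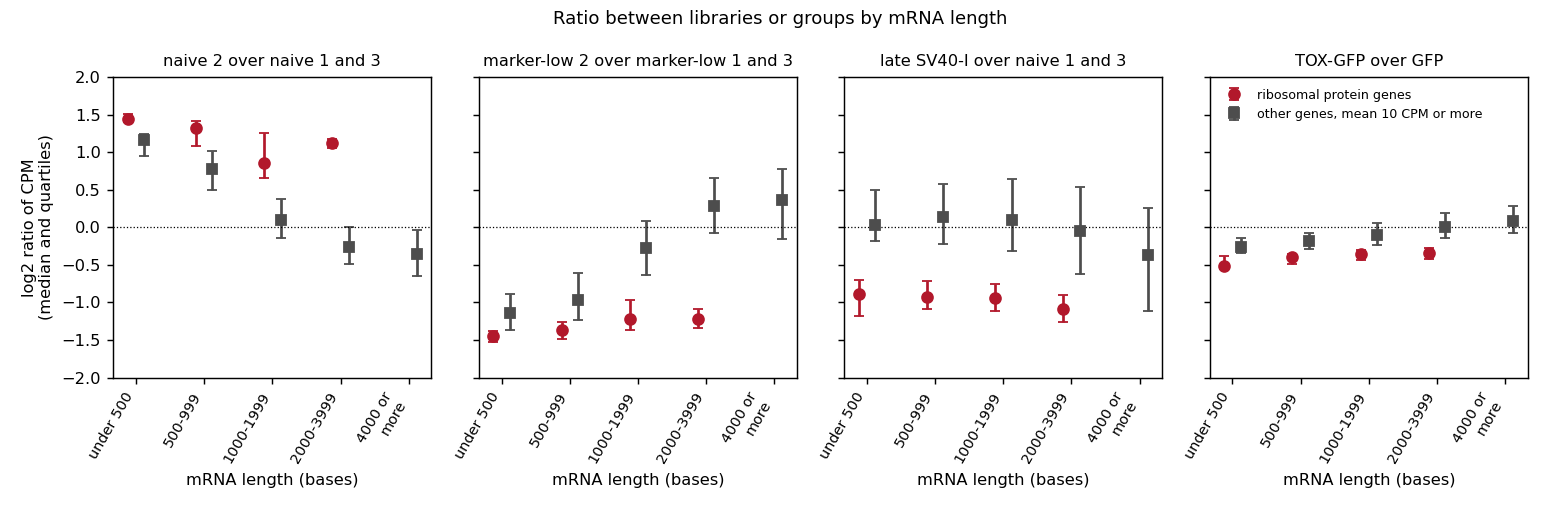
Median log2 ratio of CPM, with quartiles, for ribosomal protein genes (red) and for other genes at a mean of 10 CPM or more (grey), by mRNA length. In the 2 panels that set a library against its own group's others, short genes of both kinds shift together. The ribosomal protein genes shift there at every length they cover, from 0.85 to 1.44 for naive 2 and from -1.45 to -1.22 for marker-low 2. Other genes of 1000 to 2000 bases lie at 0.10 and -0.28 in these panels. For late SV40-I over naive 1 and 3 the ribosomal protein genes lie between -1.09 and -0.89 at every length. Other genes under 2000 bases lie near 0 in that panel.

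Levels per length of the gene model differed widely within the family. Rplp0, the base of the stalk that recruits elongation factors, was highest at a mean of 1101 CPM per kb over the 7 groups, followed by Rpl4, which lines the peptide exit tunnel, at 983. Lowest were Rpl24 at 5.23, Rpl23a at 10.3 and Rpl35a at 17.1 CPM per kb. The gene model of Rpl35a holds 3526 exon bases, while its mRNA has 491, so its value per kb is lowered by the model's length. Of these low genes, Rpl24 shares 47.0% and Rpl23a 62.3% of its exon bases with other listed genes, and 14 pseudogenes carry Rpl23a's name, so reads of both may have gone uncounted. In all, 36 of the 76 genes share exon bases with another listed gene and 58 have pseudogenes named after them; their levels are uncertain for this reason, while the difference between groups is read within the same gene.

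Late SV40-I cells had lower levels than naive cells for 49 of the 76 genes, and none was higher (edgeR's quasi-likelihood test, adjusted p under 0.05). Of all 16404 genes tested, 6.86% were called lower and 11.1% higher. DESeq2 called 65 of the 76 lower, against 10.4% of all genes. The median log2 fold change of the family was -1.36, against 0.05 over all genes, and 70 of the 76 genes had all 3 late libraries below all 3 naive libraries, against 19.5% of all genes. The 49 comprised 22 small-subunit and 27 large-subunit genes. The call depended on library: it stood at 10, 20 and 13 genes without late SV40-I library 1, 2 or 3, and at 4 genes without naive 2, with a median of -0.84. Macrophage markers summed to 57.2 to 1092 CPM in late SV40-I and to 114 to 288 CPM in naive libraries. Hepatocyte markers summed to 37.4 to 1416 CPM in late SV40-I and to 2.95 to 9.17 CPM in naive libraries, without overlap. The part of other cells' RNA in the folds of late SV40-I over naive cells was not tested.

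Rps19, another Diamond-Blackfan anaemia gene, which helps to mature the small subunit (chr7:24884371-24889806, plus strand), fell most. It had 141, 205 and 214 CPM in late SV40-I cells, against 633, 1425 and 418 CPM in naive cells, a log2 fold change of -2.08 ± 0.47 (SE; edgeR adjusted p = 0.00829). Every late library lay below every naive library, and naive 2 stood far above naive 1 and 3. Rpl31, at the exit of the peptide tunnel, followed with 16.1, 23.8 and 18.3 CPM in late SV40-I cells, against 61.0, 147 and 43.4 CPM in naive cells (log2 -2.05 ± 0.51, edgeR adjusted p = 0.0148). Rpl35, also at the tunnel exit (chr2:39001580-39005624, minus strand), had 41.2, 57.9 and 58.8 CPM in late SV40-I cells, against 169, 373 and 121 CPM in naive cells (log2 -2.0 ± 0.46, edgeR adjusted p = 0.00888). The groups did not overlap for either gene. Rpl35 shares 66.2% of its exon bases with Arpc5l and Wdr38, and 21 pseudogenes carry the name of Rpl31.

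The gene with the steadiest naive level was lower as well. Rpl4 (chr9:64173375-64178666, plus strand) had 784, 1219 and 1291 CPM in late SV40-I cells, against 2464, 2882 and 2452 CPM in naive cells, a log2 fold change of -1.17 ± 0.24 (edgeR adjusted p = 0.0045). All late libraries lay at or below 1291 CPM and all naive libraries at or above 2452 CPM. Rpl4, Rpl35, Rps19 and Rps20 were the 4 genes still called when each library of either group was left out in turn; over 15 alternative settings the log2 fold change of Rpl4 ranged from -1.31 to -0.98, with edgeR or DESeq2 adjusted p of at most 0.0213. Rps20, at the head of the small subunit, had 74.8, 111 and 99.0 CPM in late SV40-I cells, against 301, 611 and 217 CPM in naive cells (log2 -1.92 ± 0.44, edgeR adjusted p = 0.00843).

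Marker-high early cells had lower levels than naive cells for 21 of the 76 genes, and no gene was higher (edgeR, adjusted p under 0.05; 9.1% of all genes were called lower and 14.3% higher). The family's median log2 fold change was -1.03, and 42 genes had all 3 marker-high libraries below all 3 naive libraries, against 20.8% of all genes. The count fell to 1, 3 and 2 without marker-high library 1, 2 or 3, to 8 without naive 1 and to 1 without naive 2, and stood at 34 without naive 3. DESeq2 called 40, against 13.6% of all genes. Macrophage markers summed to 4038 to 5971 CPM in marker-high and to 114 to 288 CPM in naive libraries, with all 8 detected in marker-high cells; their part in these folds was not tested.

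Rps27 (chr3:90212522-90213651, minus strand), a zinc-finger protein of the small subunit also known as metallopanstimulin, fell most. It had 93.8, 92.1 and 68.5 CPM in marker-high cells, against 371, 927 and 260 CPM in naive cells. Its log2 fold change was -2.60 ± 0.48 (edgeR adjusted p = 0.00221), and it was the gene of the 21 that was called whichever library of either group was left out, with log2 values from -2.93 to -1.86 over 15 settings and adjusted p of at most 0.0111. Rps19 had 236, 278 and 185 CPM in marker-high cells, against the naive values above (log2 -1.81 ± 0.47, edgeR adjusted p = 0.0148). Rpl37a, a zinc-finger protein of the large subunit, had 132, 142 and 93.5 CPM in marker-high cells, against 277, 648 and 199 CPM in naive cells (log2 -1.59 ± 0.44, edgeR adjusted p = 0.0206). For all 3 genes every marker-high library was below every naive library.

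Rps27 was also the gene with the lowest fold change of the 76 in marker-low over naive (log2 -1.39 ± 0.46, edgeR adjusted p = 0.0559), in marker-high over marker-low (-1.20 ± 0.46, adjusted p = 0.323), in TOX-GFP over GFP (-0.76 ± 0.11, adjusted p = 0.207) and in GFP over naive (-2.03 ± 0.52, adjusted p = 0.00683). It had 259, 83.4 and 228 CPM in marker-low, 96.1 and 102 CPM in TOX-GFP and 164 and 171 CPM in GFP cells. Its paralogue Rps27l, a p53 target in human cells whose protein can take the place of Rps27, was measured as a separate gene. Rps27l had 248 and 203 CPM in TOX-GFP and 258 and 233 CPM in GFP cells, against 46.5, 89.9 and 30.2 CPM in naive cells. It was higher in GFP than in naive cells by a log2 fold change of 1.75 ± 0.47 (edgeR adjusted p = 0.00936) and stayed called in all 14 alternative settings, with log2 values from 1.43 to 2.32. In the lesion it had 113, 148 and 64.3 CPM in marker-high and 159, 58.2 and 139 CPM in marker-low cells, which overlapped with naive cells (log2 0.99 ± 0.45, adjusted p = 0.131, and 1.15 ± 0.45, adjusted p = 0.0987, over naive). Rps27 was thus low where Rps27l was high in the cultured libraries, and reads that match both genes may have been left uncounted.

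**Figure D3:**
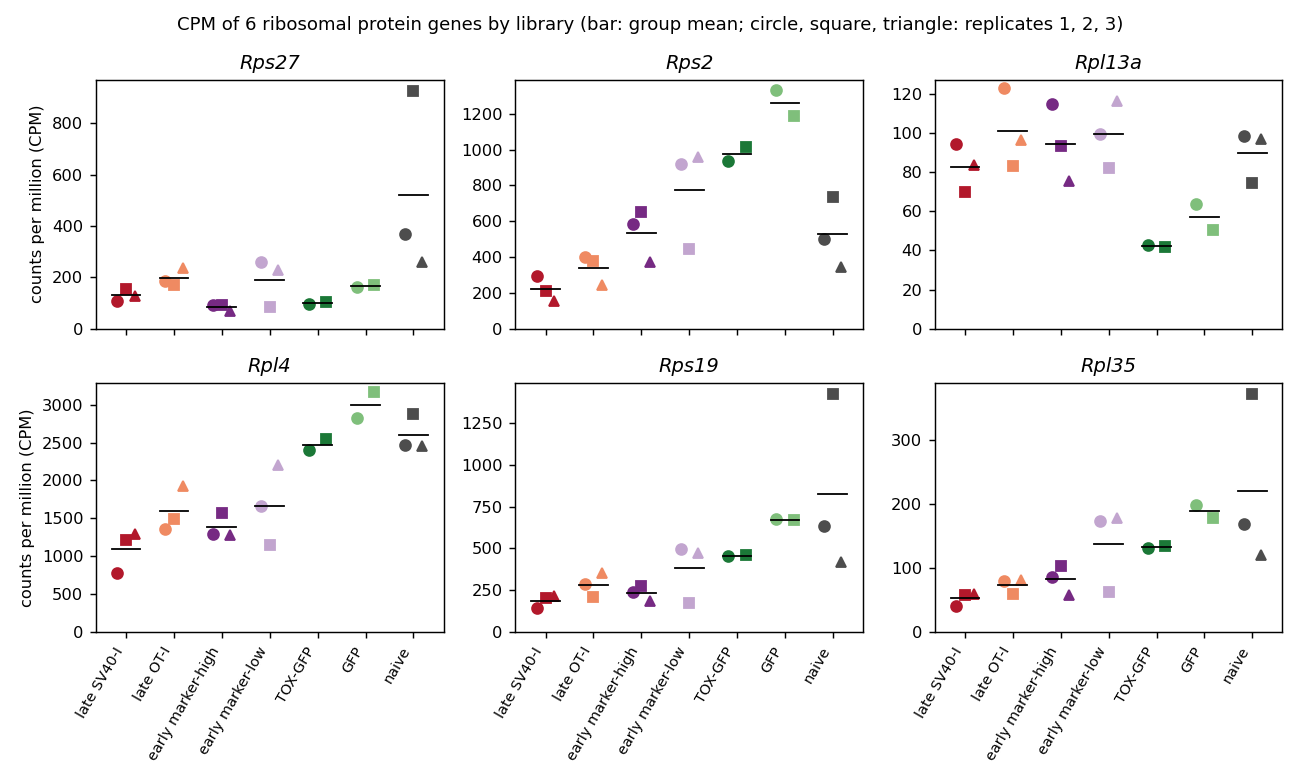
CPM of 6 ribosomal protein genes in each library (bar: group mean; circle, square and triangle: replicates 1, 2 and 3; axes start at 0). Rps27, Rps19 and Rpl35 show naive 2 far above naive 1 and 3, and Rpl4 shows the 3 naive libraries between 2452 and 2882 CPM. Rps2 is highest in GFP cells, while TOX-GFP overlaps with marker-low, and Rpl13a is lowest in cultured cells.

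Late OT-I cells had 2 of the 76 genes called lower than in naive cells and none higher (edgeR, adjusted p under 0.05; 2.29% of all genes were called lower and 5.06% higher). The median log2 fold change was -1.09, 61 genes had an unadjusted p under 0.05 (against 7.51% of all genes in that direction) and DESeq2 called 32 lower, against 4.77% of all genes. In 59 genes every OT-I library was below every naive library, against 13.1% of all genes. Rps20 had 114, 94.8 and 146 CPM in OT-I cells, with a log2 fold change over naive of -1.65 ± 0.43 (edgeR adjusted p = 0.0348). Rpl3, which shapes the peptidyl transferase centre, had 590, 516 and 771 CPM in OT-I cells, against 1142, 1604 and 968 CPM in naive cells (log2 -0.96 ± 0.26, edgeR adjusted p = 0.0392). Neither gene overlapped between the groups, and without OT-I library 1 or 2, or naive 1 or 2, no gene was called; without OT-I library 3 the count was 1 and without naive 3 it was 6. The 7 erythroid and platelet markers, all detected in both groups, summed to 1290 to 3605 CPM in OT-I and to 30.7 to 295 CPM in naive libraries, the hepatocyte markers to 16.8 to 1733 CPM in OT-I and 2.95 to 9.17 CPM in naive libraries, and the macrophage markers to 321 to 678 CPM in OT-I and 114 to 288 CPM in naive libraries. Their part in these folds was not tested.

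Marker-low early cells had no gene called in either direction over naive cells (edgeR), with 3 genes lower at an unadjusted p under 0.05, against 13.4% of all genes, and 1 called lower by DESeq2, against 11.0% of all genes. Of all genes, 6.21% were called lower and 10.6% higher. The median log2 fold change was -0.37, and its direction rested on naive 2. The median was 0.20 without naive 2, and 0.53 without naive 2 and marker-low 2, with 3 genes then called higher. In 2 genes all marker-low libraries lay below all naive libraries, against 18.3% of all genes. Macrophage markers summed to 731 to 8715 CPM in marker-low and to 114 to 288 CPM in naive libraries. Neutrophil markers summed to 95.2 to 1020 CPM in marker-low and to 2.44 to 17.1 CPM in naive libraries. The part of other cells' RNA in these folds was not tested.

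GFP effector cells had 5 genes called lower than in naive cells and none higher (edgeR, adjusted p under 0.05; 15% of all genes were called lower and 17.6% higher). These were Rps27, Rpl13a, Rpl3, Rpl37a and Rps29, and DESeq2 called 7, against 19.4% of all genes. Both GFP libraries lay below all naive libraries in 5 genes, against 21.1% of all genes. Rpl13a had 64.0 and 50.5 CPM in GFP cells, against 98.4, 74.4 and 97.0 CPM in naive cells (log2 -1.03 ± 0.25, edgeR adjusted p = 0.00562). Rpl3 had 892 and 877 CPM in GFP cells, with the groups apart (log2 -0.87 ± 0.28, edgeR adjusted p = 0.0245). In the other direction, Rps2 had 1331 and 1189 CPM in GFP cells, against 501, 735 and 344 CPM in naive cells; the groups did not overlap and the difference did not pass (log2 0.87 ± 0.38, edgeR adjusted p = 0.0964). Without GFP library 1 a single gene was called lower (7.34% of all genes) and without GFP library 2 no gene (7.46%), the lone GFP library being assumed to vary like the other groups. Without naive 2 the count was 2 lower and 1 higher, with a median log2 fold change of 0.02 in place of -0.57.

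Tumour-specific late SV40-I cells and bystander late OT-I cells, taken from lesions on the same days, did not differ in any ribosomal protein gene past the test. No gene was called by edgeR, which called 4.11% of all genes lower and 4.91% higher, or by DESeq2, which called 7.28% lower. None had an unadjusted p under 0.05, against 10.5% of all genes in the lower direction. The median log2 fold change was -0.30, with 72 of the 76 fold changes below 0. All late SV40-I libraries lay below all OT-I libraries in 22 genes, against 14.7% of all genes. Rpl4 was an example, with 784, 1219 and 1291 CPM in late SV40-I cells, against 1365, 1495 and 1921 CPM in OT-I cells. Its log2 fold change was -0.48 ± 0.24 (edgeR adjusted p = 0.257). Erythroid and platelet markers summed to 98.8 to 781 CPM in late SV40-I and 1290 to 3605 CPM in OT-I libraries. CD8 T cell markers summed to 22166 to 25034 CPM in late SV40-I and 11150 to 12214 CPM in OT-I libraries. Hepatocyte and macrophage markers overlapped between the groups. The part of other cells' RNA in these folds was not tested.

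Marker-high against marker-low cells gave the same kind of answer. No gene was called by edgeR, which called 0.719% of all genes lower and 0.475% higher, or by DESeq2, which called 2.74% lower. At an unadjusted p under 0.05, 4 genes were lower, against 5.66% of all genes. All 76 fold changes were below 0, with a median of -0.65 and a range from -1.20 to -0.10. The libraries of the groups still overlapped in every gene, against 6.93% of all genes in which marker-high lay wholly below. Macrophage markers summed to 4038 to 5971 CPM in marker-high libraries. In marker-low libraries 1, 2 and 3 they summed to 1994, 8715 and 731 CPM. The part of macrophage RNA in these folds was not tested. Without marker-low library 2 the median was -0.99 and again no gene was called; without it and naive 2 together, 4 genes were called lower.

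Forced TOX in cultured cells went with lower levels of all 76 genes in both libraries, by a median log2 fold change of -0.40, but no gene passed edgeR's test at adjusted p under 0.05. That test called 0.0% of all 14614 genes in either direction. In each of the 76 genes both TOX-GFP libraries lay below both GFP libraries, against 23.0% of all genes, 67 had an unadjusted p under 0.05 in edgeR, against 4.72% of all genes in that direction, and DESeq2 called 28 lower, against 1.33% of the 10647 genes it tested. Without GFP library 1 edgeR called 7 of the 76 lower (0.255% of all genes) and without GFP library 2 it called 48 (2.41% of all genes), but there the lone GFP library is assumed to vary like the TOX-GFP pair. Rps19 had 453 and 461 CPM in TOX-GFP cells, against 674 and 669 CPM in GFP cells (log2 -0.56 ± 0.09, edgeR adjusted p = 0.215). The fold changes ranged from -0.76 for Rps27 to -0.20 for Rplp0, which had 1647 and 1694 CPM in TOX-GFP cells, against 2022 and 1804 CPM in GFP cells. Whether the TOX effect in culture differed from the marker-high to marker-low difference in lesions was tested as an interaction. No gene of the family was called by edgeR or DESeq2 and none had an unadjusted p under 0.05 in edgeR. Of all genes, edgeR called 0.00537% lower and 0.0215% higher, and DESeq2 called 0.263% lower. At an unadjusted p under 0.05 in edgeR, 1.63% of all genes were lower. Of the family's interaction estimates 75 were above 0, with a median log2 of 0.29 against 0.03 over all genes. The marker-low libraries differed 2.34-fold in summed share, so the test cannot show that the 2 effects are alike.

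**Figure D4:**
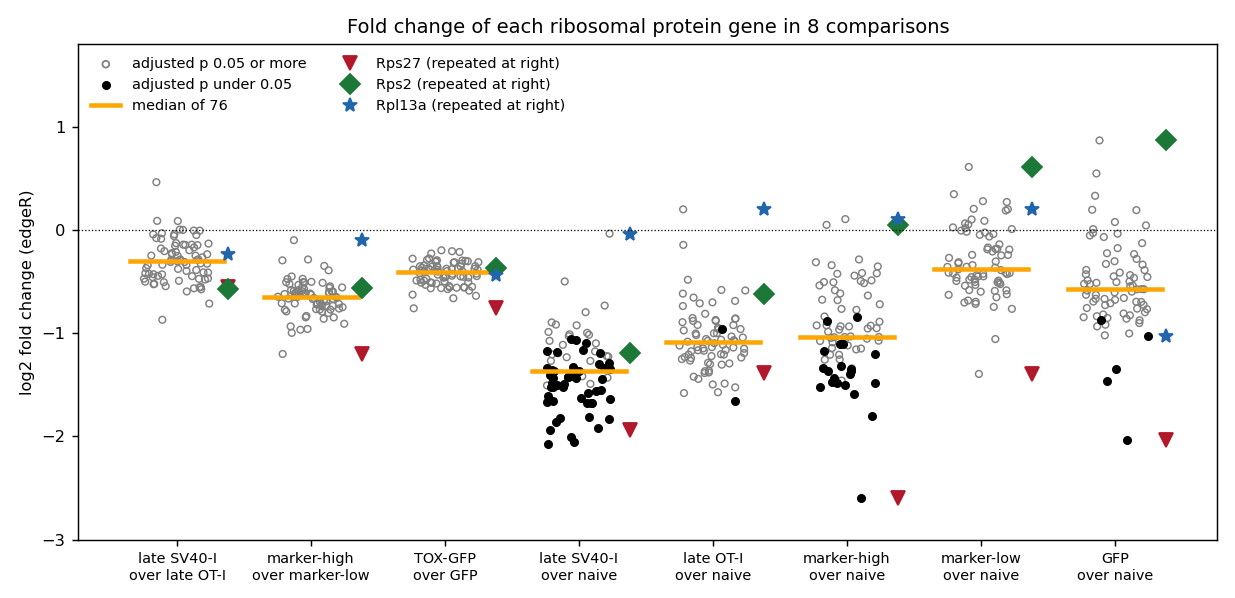
Log2 fold change (edgeR) of each of the 76 genes in 8 comparisons; filled points passed adjusted p under 0.05, orange bars are medians, and Rps27, Rps2 and Rpl13a are repeated at the right of each column. Medians lie below 0 in all 8, from -0.30 for late SV40-I over late OT-I to -1.36 for late SV40-I over naive. The 5 comparisons at the right share the naive libraries.

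By role, the stalk genes moved together in late SV40-I cells: Rplp0 (log2 -1.05 ± 0.30 over naive, edgeR adjusted p = 0.0286), Rplp1 (-1.43 ± 0.46, adjusted p = 0.0491) and Rplp2 (-1.34 ± 0.42, adjusted p = 0.0413) were all called lower. Rpsa of the small subunit fell, with 386, 390 and 403 CPM in late SV40-I, against 983, 1431 and 783 CPM in naive cells. Its log2 fold change was -1.36 ± 0.33 (edgeR adjusted p = 0.0131). Rps3, at the mRNA entry and head, missed the threshold (-1.03 ± 0.34, edgeR adjusted p = 0.0504). Rps6, the substrate of S6 kinase and a common readout of mTOR activity, fell in late SV40-I cells, with 157, 225 and 179 CPM against 474, 821 and 367 CPM in naive cells (log2 -1.5 ± 0.37, edgeR adjusted p = 0.0141). It also fell in marker-high cells, with 250, 281 and 181 CPM (log2 -1.20 ± 0.37, edgeR adjusted p = 0.0332). The MDM2-binding genes Rpl5 (-1.07 ± 0.37, adjusted p = 0.0607) and Rpl11 (-1.19 ± 0.43, adjusted p = 0.0755) did not pass in late SV40-I over naive cells.

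Rps27a, made as a fusion with ubiquitin, fell in late SV40-I cells (72.5, 113 and 82.8 CPM, against 215, 496 and 164 CPM in naive cells; log2 -1.64 ± 0.46, edgeR adjusted p = 0.0268). So did Rpl10a (-1.18 ± 0.33, adjusted p = 0.0254), which is linked to translation of selected mRNAs, Rps25 (-1.86 ± 0.48, adjusted p = 0.0175), needed for internal ribosome entry, Rps4x (-1.56 ± 0.37, adjusted p = 0.0108), Rpl35a (-1.66 ± 0.50, adjusted p = 0.0349) and Rpl41 (-1.55 ± 0.49, adjusted p = 0.0453), which encodes the smallest ribosomal protein. Rpl38, needed for translation of Hox mRNAs in the embryo, did not pass (-0.73 ± 0.42, adjusted p = 0.252); it had 30.5, 37.7 and 39.9 CPM in late SV40-I cells, against 48.9, 102 and 37.4 CPM in naive cells, and the groups overlapped. Rpl22 (-1.01 ± 0.36, adjusted p = 0.0729), Rps26 (-1.51 ± 0.49, adjusted p = 0.0506) and Rpl39 (-1.23 ± 0.48, adjusted p = 0.0935) did not pass either, although in each of them all late libraries lay below all naive ones. All these values come from edgeR.

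The make-up of the family was described from the share that each gene held. The share of the family's own counts that a gene held differed between the highest and lowest group mean by a median of 1.43-fold over the 76 genes, and by 1.11-fold for Rpl18, 1.14-fold for Rpl8 and 1.15-fold for Rps16. The widest ratios were Rpl13a at 3.44-fold, Rps27 at 3.24-fold and Rps2 at 2.74-fold; these ratios describe libraries and were not tested. Rps2, at the mRNA entry site of the small subunit (chr17:24718116-24721929, plus strand), held 1.65% of the family's counts in late SV40-I, 2.03% in late OT-I, 2.96% in marker-high, 2.99% in marker-low, 4.11% in TOX-GFP, 4.03% in GFP and 1.5% in naive cells. It had 292, 213 and 152 CPM in late SV40-I, 401, 377 and 244 in late OT-I, 584, 651 and 375 in marker-high, 918, 446 and 957 in marker-low and 936 and 1013 in TOX-GFP libraries. By library, Rps2 held 3.89% to 4.18% of the family's counts in cultured cells, 2.80% to 3.19% in early cells and 1.36% to 1.66% in naive cells. Late libraries were split, with 2.5%, 1.43% and 1.04% in late SV40-I and 2.35%, 2.56% and 1.18% in late OT-I cells. Rpl5 was also high in culture, with 0.699% in TOX-GFP, 0.614% in GFP and 0.326% in naive cells.

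Rpl13a (chr7:45125558-45128761, minus strand) took another course. It had 94.4, 69.7 and 83.8 CPM in late SV40-I, 123, 83.3 and 96.4 in late OT-I, 115, 93.4 and 75.6 in marker-high cells and, among marker-low libraries, 99.4, 82.4 and 117, all overlapping with the naive values, and 42.9 and 42.0 CPM in TOX-GFP libraries. Its fold change in late SV40-I over naive cells was -0.04 ± 0.23 (edgeR adjusted p = 0.94), the highest of the 76. It held 0.616% of the family's counts in late SV40-I and 0.293% in naive cells, and 0.179% and 0.183% in TOX-GFP and GFP cells. Of its exon bases, 35.4% are shared with other listed genes, among them Snord33, and such reads may have been left out of its count.

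**Figure D5:**
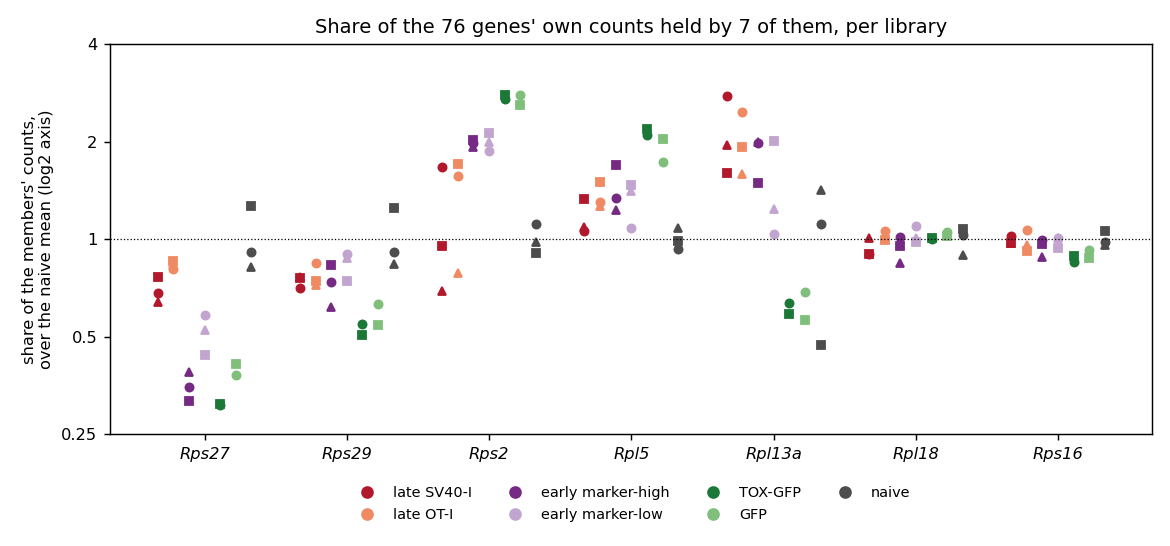
Share of the 76 genes' own counts held by 7 of them in each library, divided by the naive mean (log2 axis), coloured by group; circle, square and triangle are replicates 1, 2 and 3. Rps27 lies below the naive mean in all late, early and cultured libraries, but so do naive 1 and 3, and late OT-I overlaps the naive range. Rps2 is more than 2 times the naive mean in cultured cells. Rpl13a is above the naive mean in lesion libraries and below it in culture and in naive 2. Its marker-low 1 and 3 and cultured libraries lie within the naive range. Rpl18 and Rps16 stay near 1.

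Other ribosomal protein genes are left out by the naming rule. In late SV40-I over naive cells the 12 tested had a median log2 fold change of -1.01. That median includes 2 nearly silent genes, Rpl39l (-3.33 ± 1.81) and Rpl3l (-3.30 ± 2.52). Mean levels in late SV40-I and naive cells were 0.0471 and 0.515 CPM for Rpl39l, and 0.00615 and 0.0946 CPM for Rpl3l. Of the 12, 1 was called lower and none higher by edgeR, against 6.86% and 11.1% of all genes. It was Rps3a1, with 215, 355 and 294 CPM in late SV40-I cells, against 595, 1131 and 509 CPM in naive cells (log2 -1.30 ± 0.38, adjusted p = 0.0314; not called without naive 2 or late SV40-I library 1 or 3). Genes of the mitochondrial ribosome, the set of 76 with Mrpl and Mrps names, showed 1 higher and 3 lower in the same comparison, with a median log2 of -0.16, both counts being below the shares of all genes called (11.1% higher and 6.86% lower). Mrpl4 was the higher one, with 325 ± 15.8 CPM (SD, n = 3) in late SV40-I and 141 ± 15.1 CPM in naive cells (log2 1.29 ± 0.17, edgeR adjusted p = 0.000189). Of 35 translation factors, 5 were lower and none higher in late SV40-I over naive cells, with a median of -0.60, against the same shares of all genes. The elongation factor Eef1a1, itself a TOP mRNA, had 3234 ± 311 CPM (SD, n = 3) in marker-high and 6105 ± 132 CPM in naive cells (log2 -0.89 ± 0.20, edgeR adjusted p = 0.00649) and was called in all 15 alternative settings.

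Ribosome assembly genes and the mTOR, LARP1 and MYC list had calls in both directions. Of 38 assembly genes, 10 were lower and 1 higher in late SV40-I over naive cells (edgeR; median -0.74; 6.86% of all genes were lower and 11.1% higher), 6 lower in late SV40-I over late OT-I cells (median -0.61; 4.11% of all genes) and none called in marker-high over marker-low or TOX-GFP over GFP. The higher one was Pes1, of the complex that matures large-subunit RNA, with 172 ± 6.5 CPM in late SV40-I and 101 ± 15.8 CPM in naive cells (log2 0.86 ± 0.16, edgeR adjusted p = 0.00261). Gnl3, a nucleolar GTPase, was lower in late SV40-I cells, with 3.47 ± 1.45 CPM against 14.3 ± 4.53 CPM in late OT-I cells (log2 -1.97 ± 0.41, edgeR adjusted p = 0.00824). Of the 23 genes of the mTOR, LARP1 and MYC list, 5 were higher and 2 lower in late SV40-I over naive cells, where 11.1% of all genes were higher and 6.86% lower. Rptor, the scaffold of mTOR complex 1, had 77.7 ± 24.1 CPM in late SV40-I and 17.8 ± 7.36 CPM in naive cells (log2 2.22 ± 0.45, edgeR adjusted p = 0.00412). Rps6kb2, an S6 kinase, had 82.9 ± 15.3 CPM in late SV40-I and 43.1 ± 1.77 CPM in naive cells (log2 1.02 ± 0.22, edgeR adjusted p = 0.0053), and both were called in all 15 alternative settings. Myc, which drives ribosome production, had 121 ± 40.6 CPM in late SV40-I and 299.8 ± 22.4 CPM in late OT-I cells (log2 -1.25 ± 0.25, edgeR adjusted p = 0.0067). It had 277 ± 62.4 CPM in marker-high and 625 ± 150.3 CPM in marker-low cells (log2 -1.20 ± 0.25, edgeR adjusted p = 0.0366, not called without any single marker-high library or without marker-low 2 or 3). Myc was highest in GFP cells, at 1155 ± 10.7 CPM (SD, n = 2) against 169.6 ± 6.52 CPM in naive cells (log2 2.39 ± 0.25, edgeR adjusted p = 6.56e-06). In TOX-GFP over GFP, none of the 23 was called.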

How the data were processed

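RNA from sorted cells was made into libraries with SMART-seq v4 and sequenced as paired reads of 50 bases, per the labels' protocols. The authors deposited 1 table of raw counts per library: whole numbers of read pairs per gene name, counted without regard to strand with featureCounts 1.6.2 on GENCODE M17 (GRCm38), per the file headers; no option for multi-mapping reads appears there. FastQC, STAR, featureCounts and DESeq2 are named in the submitters' processing notes.

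CPM was computed from each table's total. All ex vivo libraries (15) were fitted together, the 4 cultured libraries apart, and all 19 for GFP over naive and the interaction, with edgeR 4.0.16 in R 4.3.3 (TMM scaling, filterByExpr, robust quasi-likelihood F test). P-values were Benjamini-Hochberg adjusted over every tested gene, with calls made below 0.05. SE values were worked back from the F statistic. DESeq2 1.42.0, other scalings and filters, the replicate number as a block, the compared groups alone and leaving out libraries were alternatives. The code was tested on simulated counts. CPM, shares and figures were made with Python 3.11.15.

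The members and gene lists were chosen with earlier results of these data known. Named genes were those with a fixed role, the 3 called genes without overlap of largest change in each comparison, the 3 extremes of level, threshold and naive spread, and in other lists up to 2 genes of smallest p in each direction. Genes outside this rule, such as Rps2, Rps27l and the genes of small counts, were singled out after their values were seen. Single values of some genes that the rule names are not reported here. mRNA lengths came from a later GENCODE release of the same build, and start regions from RefSeq.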

Additional observations from a re-analysis of the deposited data

How the results depend on the processing

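The count of ribosomal protein genes called lower depended on the setting. With DESeq2 it was 32 for late OT-I, 40 for marker-high and 1 for marker-low over naive, and 28 in TOX-GFP over GFP. Library totals without TMM gave 4 in OT-I and 1 in marker-low cells over naive, and 2 lower and 1 higher in GFP over naive. A stricter filter gave 8 for OT-I, 37 for marker-high and 1 for marker-low, and the compared groups alone gave 1 in OT-I cells. Leaving out naive 2 and marker-low 2 together, chosen after seeing the data, gave 23 in late SV40-I, 1 in OT-I and 8 in marker-high cells over naive, 3 higher in marker-low cells (median log2 0.53), 4 lower in marker-high over marker-low, and 3 lower and 2 higher in GFP over naive (median 0.0132).

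Leaving out each library in turn gave 4 to 61 genes in late SV40-I, 0 to 6 in OT-I, 1 to 34 for marker-high and 0 to 1 for marker-low over naive, 0 to 48 in TOX-GFP over GFP, and 0 to 8 lower and 0 to 1 higher in GFP over naive. Medians of the log2 fold change ranged from -1.63 to -0.839 in late SV40-I, -1.36 to -0.563 in OT-I, -1.30 to -0.51 in marker-high, -0.643 to 0.201 in marker-low and -0.891 to 0.0159 in GFP cells over naive. They ranged from -0.508 to -0.166 in late SV40-I over OT-I, -0.987 to -0.384 in marker-high over marker-low and -0.485 to -0.359 in TOX-GFP over GFP. Summed shares ranged from 1.32% to 1.48% in late SV40-I, 1.59% to 1.89% in OT-I, 1.64% to 2.06% in marker-high, 2.31% to 3.24% in marker-low, 2.31% to 2.43% in TOX-GFP, 3.06% to 3.18% in GFP and 2.68% to 4.21% in naive cells. The share was 1.99% in TOX-GFP and 2.53% in GFP cells on TMM-scaled totals, 2.60% and 3.40% with further ribosomal protein and pseudogene names, and 2.12% and 2.82% without Rpl4. Single genes near 0 changed sign; over the left-out libraries Rpl4 ranged from -0.247 in GFP over naive, Rpl13a from -0.262 in marker-high over marker-low, to 0.237 in marker-high over naive and from -0.157 in late SV40-I over naive, and Rps2 to 0.375 in marker-high over naive. Rpl4 in GFP over naive was 0.204 on library totals and 0.0192 without GFP 1. Rpl13a was -0.0101 in OT-I over naive without OT-I 1, 0.0339 in marker-high over marker-low without marker-high 3, -0.00989 (naive 2 and marker-low 2 left out), -0.0582 (without marker-high 1) and -0.0117 (without naive 2) in marker-high over naive, and 0.0495, 0.0385 and 0.00837 in late SV40-I over naive without late 2, naive 1 and naive 3. Rps2 in marker-high over naive was -0.0375 with the stricter filter, -0.00281 with the compared groups alone, and -0.017, -0.105 and -0.193 without marker-high 1, marker-high 2 and naive 3. Beyond fewer samples or genes, the cause was not tested.

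With the replicate number as a block (replicate block), 28 genes were called lower in late SV40-I, 0 in OT-I and 9 in marker-high cells over naive, and 3 in GFP over naive. The libraries share only a number: deviations of same-numbered ex vivo libraries correlated at -0.433 to 0.362 over 30 pairs, and 9 of 15 libraries correlated best with their own number.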
